A study of Mus musculus with 17 samples.

Results

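Oligodendrocytes wrap the axons of the central nervous system in myelin, and 9 of their genes were followed here through mouse brain after a toxin lesion of the dopamine system and after gene delivery of NDST3. The set was taken by symbol from all genes listed, 9 of 20328 in the bulk RNA-seq table and 9 of 26646 with a unique symbol in the scRNA-seq table. It comprised Mbp, Mobp and Mog, which encode proteins of the myelin sheath, Mag and Cnp, whose products sit in the non-compacted parts of the sheath, Opalin, a membrane protein of mature oligodendrocytes, Ugt8a, which makes the myelin lipid galactosylceramide, Olig2, the lineage transcription factor, and Pdgfra, the growth factor receptor of oligodendrocyte precursors. In the adult brain, precursors that carry PDGFRA divide, leave the cycle, and turn on the myelin genes as they mature, while OLIG2 is present from the precursor onwards. Precursor genes and sheath genes thus report on different stages of the same lineage.

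All animals were wild-type (WT) ICR mice, adult females per the study's methods, 8 weeks old at surgery. The sham group received no toxin. The 6-OHDA group received 6-hydroxydopamine (10 µg/µl), which kills dopamine neurons, on one side into the substantia nigra. Lesioned mice without NDST3 were given saline, per the study's methods. The 6-OHDA+NDST3 group received 2 µl of an AAV9 vector with NDST3 under the CMV promoter 5 days after the same lesion. The CMV promoter is not restricted to any cell type, and no library with an empty or reporter vector was analysed here, so the vector and NDST3 cannot be told apart. RNA-seq held 2 sham, 1 6-OHDA and 2 6-OHDA+NDST3 libraries. CUT&RUN for the histone mark H3K27ac was given as 1 value per region and group (2 libraries pooled), ATAC-seq had 1 library per group, and the scRNA-seq table gave cluster means for 1 6-OHDA and 1 6-OHDA+NDST3 library. The labels name the tissue only as Brain.

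The 5 RNA-seq libraries held 51003699 to 70533326 counts. The summed level of 6 dopamine neuron markers was 712 and 668 CPM (read counts scaled for library size with TMM factors) for sham, 20.6 for 6-OHDA, and 121 and 82.5 for 6-OHDA+NDST3. The 11 general neuron markers summed to 7877 and 8668, 2793, and 6912 and 6202 CPM in the same order. Summed markers of microglia, of monocytes or macrophages, and of astrocytes were highest in the 6-OHDA library, though the astrocyte markers Aldoc and Fgfr3 were lowest there. CPM values are shares of a library, so a gene can rise as other RNA is lost, and in whole tissue more cells of a type and more RNA per cell cannot be told apart.

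The 9 genes together took 0.787% to 1.09% of all counts, and Mbp alone ranked between 2 and 4 among all genes in every library. Per transcript length, on the deposited TPM scale, sham levels ran from Mbp at 6095 ± 667 (SD, n = 2) through Mobp (1371 ± 32.8), Cnp (977 ± 68.1), Mag (691 ± 33.5), Mog (264 ± 15.2) and Ugt8a (140 ± 7.21) to Olig2 (53.3 ± 2.61), Opalin (52.5 ± 2.87) and Pdgfra (30.0 ± 3.95). In the sham libraries the ranges of neighbours in this order were separate except for Olig2 and Opalin, which overlapped. The order of the group means was the same in all 3 groups.

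The first comparison asked how the lesion moved the lineage, setting the 6-OHDA library against sham. The receptor of the precursors, Pdgfra, and the transcription factor Olig2 were higher after 6-OHDA, while the sheath genes did not pass the test. By the quasi-likelihood test of edgeR, with p-values adjusted over 19300 genes after Benjamini and Hochberg, 2 of the 9 were called higher and 0 lower at an adjusted p under 0.05. Of all genes tested, 18.8% were called higher and 17.1% lower, 35.8% in all. A count of 2 of 9 is near the share of all genes called higher, so it is no result about the set. The DESeq2 test also called 2. By a fold of at least 2 with an unadjusted p under 0.05, 0 of the 9 passed in any of the 3 comparisons made, against 24.5% of all genes for 6-OHDA against sham, 15.7% for 6-OHDA+NDST3 against 6-OHDA and 5.86% for 6-OHDA+NDST3 against sham.

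Pdgfra stood at 88.4 and 73.6 CPM in sham, 147 after 6-OHDA, and 79.6 and 81.7 with NDST3. The 6-OHDA library lay above the other 4, and the 6-OHDA+NDST3 libraries fell inside the sham range. The log2 fold change against sham was 0.86 ± 0.14 (SE; adjusted p = 0.0119, edgeR), a 1.81-fold higher level.

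Olig2 stood at 55.002 and 51.4 CPM in sham, 80.2 after 6-OHDA, and 60.6 and 55.3 with NDST3. Here too the 6-OHDA library was the highest of the 5, and the 6-OHDA+NDST3 libraries lay just above both sham libraries. The log2 fold change was 0.59 ± 0.11 (adjusted p = 0.0175, edgeR), or 1.51-fold. Its size was ordinary, since the median log2 difference without its sign was 0.597 over all genes tested. Both calls rested on having 2 sham libraries. Without sham replicate 1 the adjusted p was 0.0516 for Pdgfra and 0.0750 for Olig2, without sham replicate 2 it was 0.0836 and 0.116, and in those fits edgeR called 0 genes of the whole table. With the replicate number as a block, the values were 0.0570 and 0.0800.

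The start regions of the called genes are shown beside that of Mobp, a sheath gene that did not pass the test, because the called members can then be compared with it at the sequence level. Each line gives the 250 bases before the annotated start, from RefSeq on GRCm38.p6, 5′ to 3′ on the gene's strand. Capitals mark CANNTG, the E-box bound by basic helix-loop-helix factors such as OLIG2, and TATAAA, the TATA box, each searched on both strands.
Pdgfra: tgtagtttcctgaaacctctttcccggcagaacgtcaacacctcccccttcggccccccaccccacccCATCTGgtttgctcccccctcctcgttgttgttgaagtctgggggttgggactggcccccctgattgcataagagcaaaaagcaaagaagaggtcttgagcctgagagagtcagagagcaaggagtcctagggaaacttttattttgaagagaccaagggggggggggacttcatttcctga
Olig2: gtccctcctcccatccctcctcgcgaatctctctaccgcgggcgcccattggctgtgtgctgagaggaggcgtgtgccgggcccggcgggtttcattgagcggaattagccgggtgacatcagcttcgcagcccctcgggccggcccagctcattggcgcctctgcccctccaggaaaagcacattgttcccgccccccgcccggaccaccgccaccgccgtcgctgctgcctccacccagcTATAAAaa
Mobp: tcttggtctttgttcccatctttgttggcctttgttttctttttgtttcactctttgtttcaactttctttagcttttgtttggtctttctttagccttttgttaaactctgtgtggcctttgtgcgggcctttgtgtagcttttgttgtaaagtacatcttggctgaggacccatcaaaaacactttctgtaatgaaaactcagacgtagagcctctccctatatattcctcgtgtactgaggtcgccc
These windows lie on the plus strand at chr5:75152001-75152250, chr16:91225300-91225549 and chr9:120149492-120149741. The Olig2 and Mobp windows precede their genes, which span chr16:91225550-91228677 and chr9:120149742-120181488. The Pdgfra window lies inside the annotated span of its gene (chr5:75151322-75198206), which begins upstream of the start used here. The transcript to which that start belongs was not looked up. Pdgfra held 1 CANNTG, which 66.2% of all 32851 such windows in the table also had, and Olig2 held 1 TATAAA, present in 12.4% of them. Mobp held neither. The called genes did not share base composition, with 22 CpG in the Olig2 window against 4 in that of Pdgfra and 4 in that of Mobp, where the median of all windows was 6. A start region was listed for 8 of the 9 members. Among the others Ugt8a was CpG-rich with 32, Cnp had 13, and Mog, Mag and Opalin had 2 to 4.

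Among the sheath genes, Mbp, which compacts the myelin layers, stood at 5831 and 5227 CPM in sham, 6391 after 6-OHDA, and 6060 and 4577 with NDST3. The 6-OHDA library was the highest, but the difference of 0.21 ± 0.25 (log2, SE) was smaller than its error. Mobp, a small basic protein of compact myelin, gave 1593 and 1539, 1682, and 1626 and 1117 CPM, and Mog, an outer-surface protein, gave 191 and 177, 222, and 203 and 152. Their log2 differences against sham, 0.10 ± 0.25 and 0.27 ± 0.19, did not pass the test.

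Mag, the adhesion molecule facing the axon, differed least, with 703 and 659 CPM in sham and 716 after 6-OHDA (log2 0.07 ± 0.20, adjusted p = 0.799, edgeR). Cnp, an enzyme that keeps cytoplasmic channels open in the sheath, gave 1034 and 941 CPM in sham and 1256 after 6-OHDA. Its log2 difference was 0.35 ± 0.16. Opalin (52.5 and 48.7 against 65.4 CPM, log2 0.37 ± 0.13, adjusted p = 0.0886, edgeR) and Ugt8a (216 and 234 against 293 CPM, log2 0.38 ± 0.13, adjusted p = 0.0708, edgeR) came nearest to a call. Ugt8a passed under 4 of 13 alternative fits, among them scaling by library size alone, with an adjusted p from 0.0214 to 0.235 over all 13.

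**Figure D1:**
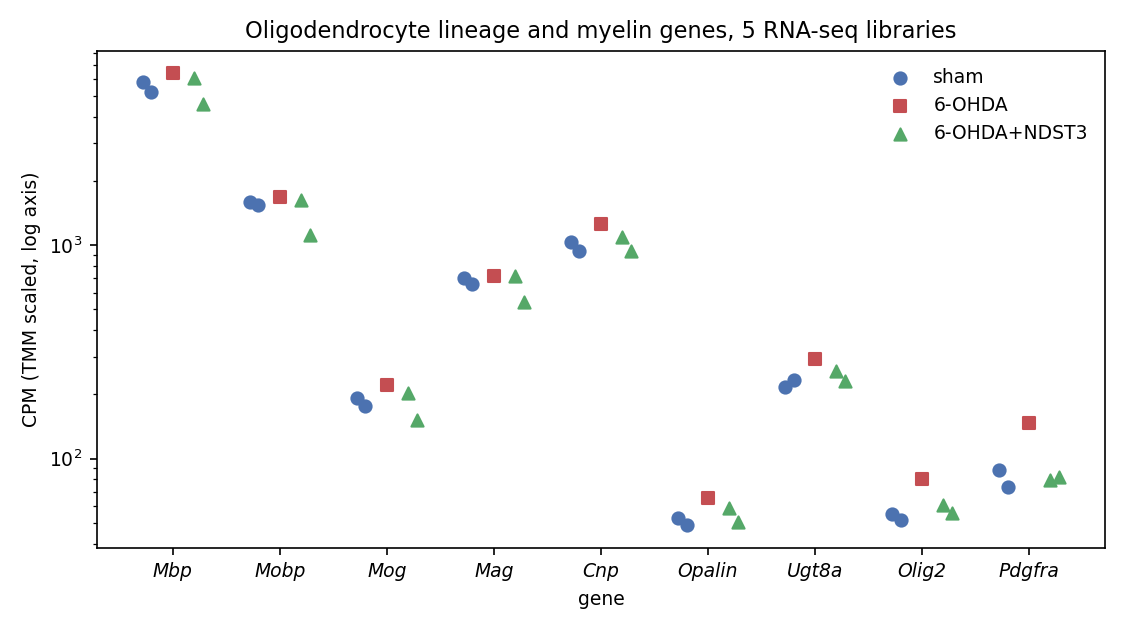
Level of each gene (x axis) in CPM scaled by TMM (y axis, log scale) in each of the 5 RNA-seq libraries, 1 point per library. The single 6-OHDA library (squares) is highest for all 9 genes, by the widest margin for Pdgfra (147 CPM) and Olig2 (80.2 CPM), though on the TPM scale it is not the highest for Mbp, Mobp, Mog and Mag.

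On this scale the 6-OHDA library was above both sham libraries for 9 of 9 genes. That separation is common in these libraries, since 89.7% of all genes had no overlap between the single 6-OHDA library and the sham pair. The direction also depended on the scale for the smallest differences. On the deposited TPM scale Mag (643 against 715 and 667) and Mobp (1280 against 1394 and 1348) were below both sham libraries and Mbp (6260 against 6566 and 5623) lay between them, and with the replicate block the log2 differences of Mag and Mobp were -0.05 and -0.05. The log2 differences of Pdgfra and Olig2 stayed positive, at 0.73 to 1.00 and 0.54 to 0.64, over all 13 alternative fits.

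Counts of Pdgfra and Olig2 relative to Mbp can be read without any scaling between libraries. Such ratios need not follow the balance of precursors and myelin, since Mbp was also detected in scRNA-seq clusters with neutrophil and T cell markers, described below. Per 100 counts of Mbp there were 1.52 and 1.41 counts of Pdgfra in sham, 2.30 after 6-OHDA, and 1.31 and 1.79 with NDST3. The 6-OHDA library was above all others. For Olig2 the counts per 100 of Mbp were 0.943 and 0.984, 1.26, and 1.00 and 1.21, so the 6-OHDA library was again the highest, though close to 6-OHDA+NDST3 replicate 2.

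Pdgfra is also made by fibroblasts, and their markers moved with it. The 7 fibroblast markers summed to 901 and 368 CPM in sham, 1977 after 6-OHDA, and 237 and 424 with NDST3. Of these 7, 5 were called higher after 6-OHDA and 5 lower with NDST3 than after 6-OHDA (edgeR, as above). Schwann cells, which make peripheral myelin with some of the same genes, had a summed marker level of 68.0 and 70.2 CPM in sham, 94.7 after 6-OHDA, and 68.3 and 72.1 with NDST3. The part of these cells in the values was not tested.

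**Figure D2:**
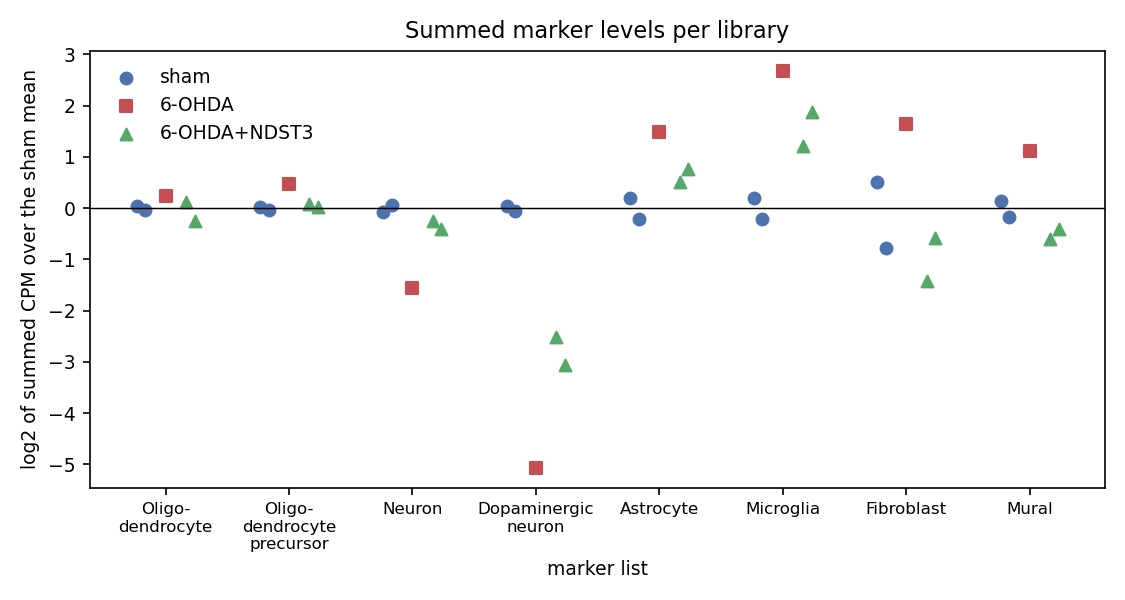
Summed CPM of each marker list (x axis) as log2 of its ratio to the mean of the sham libraries (y axis), 1 point per RNA-seq library. Oligodendrocyte markers stay near the sham mean in all 5 libraries, while dopamine neuron markers are lowest and microglia markers highest in the 6-OHDA library.

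The wider lineage was read from 77 other oligodendrocyte genes in 6 lists, all 77 of them tested. Over all genes, 18.8% were called higher and 17.1% lower. The list of precursor genes gave the most calls. It also holds genes of early maturing cells, such as Gpr17, Bmp4, Bcas1, Enpp6 and Itpr2, so it does not report on the precursor stage alone. Of its 17 genes, 11 were called higher after 6-OHDA and 1 lower. Their median log2 difference was 1.10, against a median of 0.00 over all genes tested. Matn4, a matrix protein, had the widest rise of the list (log2 2.97). Gpr17 (1.62), Enpp6 (1.76), Bmp4 (1.87) and Cspg4, the NG2 proteoglycan of precursors (1.19), were among the others called higher. Those not called were Ptprz1 (0.11), Lhfpl3 (0.23), Cacng4 (0.30), Tnr (0.39) and Pcdh15 (-0.23). Cspg4 is also made by mural cells, whose 7 markers summed to 262 and 211 CPM in sham, 515 after 6-OHDA, and 155 and 180 with NDST3. Of these 7, 3 were called higher after 6-OHDA and 4 lower with NDST3 than after 6-OHDA. The part of mural cells and of fibroblasts in the values of the precursor list was not tested. Tmem163 fell by 0.57 on the log2 scale. Whether this list differed from the others was not tested. Without sham replicate 1, and likewise without sham replicate 2, 0 of the 17 were called, as for all genes. With the replicate block 3 were, all higher.

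Of 12 lineage transcription factors, 4 were called higher and 0 lower (median 0.35), among them Sox6 (log2 0.95), Nkx2-2 (0.69) and Olig1 (0.63). Zfp536 had the lowest value, -0.83, and was not called. Among 17 myelin structure genes, 5 were called higher and 1 lower (median 0.19). Cd9 rose by a log2 of 2.31, Cldn11, the tight junction claudin of myelin, by 1.07, and Omg fell by 0.47. Mal, a lipid raft protein of myelin, was not called (0.19).

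Of 7 myelin lipid genes, 3 were called higher and 0 lower (median 0.37), from Elovl1 at 0.84 to Fa2h at -0.39, which was not called. The 19 other mature oligodendrocyte genes gave 4 higher and 1 lower (median 0.17), and 4 of 19 is near the share of all genes called higher, so it is no result about that list. Apod, a lipid carrier, rose most (log2 1.22) and Sept4 fell by 0.57. Of 5 genes known to rise in oligodendrocytes in disease, 3 were called higher (median 1.995), led by Serpina3n (2.71), and Il33 (-0.06) was not called. In all 77 genes, 30 were called higher and 3 lower, with a median of 0.35. The number lower was 8 with DESeq2 and with only these groups in the fit, 8 without 6-OHDA+NDST3 replicate 1 and 9 without replicate 2, while the number higher was 31 or 32 in these fits. Several of these genes are not particular to the lineage. Of the 76 found in scRNA-seq, 29 had a mean above 0.1 in a cluster other than cluster 2, described below. The summed markers of astrocytes, microglia, fibroblasts and mural cells were also highest in the 6-OHDA library. A few genes carried some of these sums, with Gfap at 6237 of the 10544 CPM of astrocyte markers. Against sham, 2 of 8 astrocyte, 3 of 7 mural, 1 of 7 fibroblast and 0 of 8 microglia markers were lower.

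**Figure D3:**
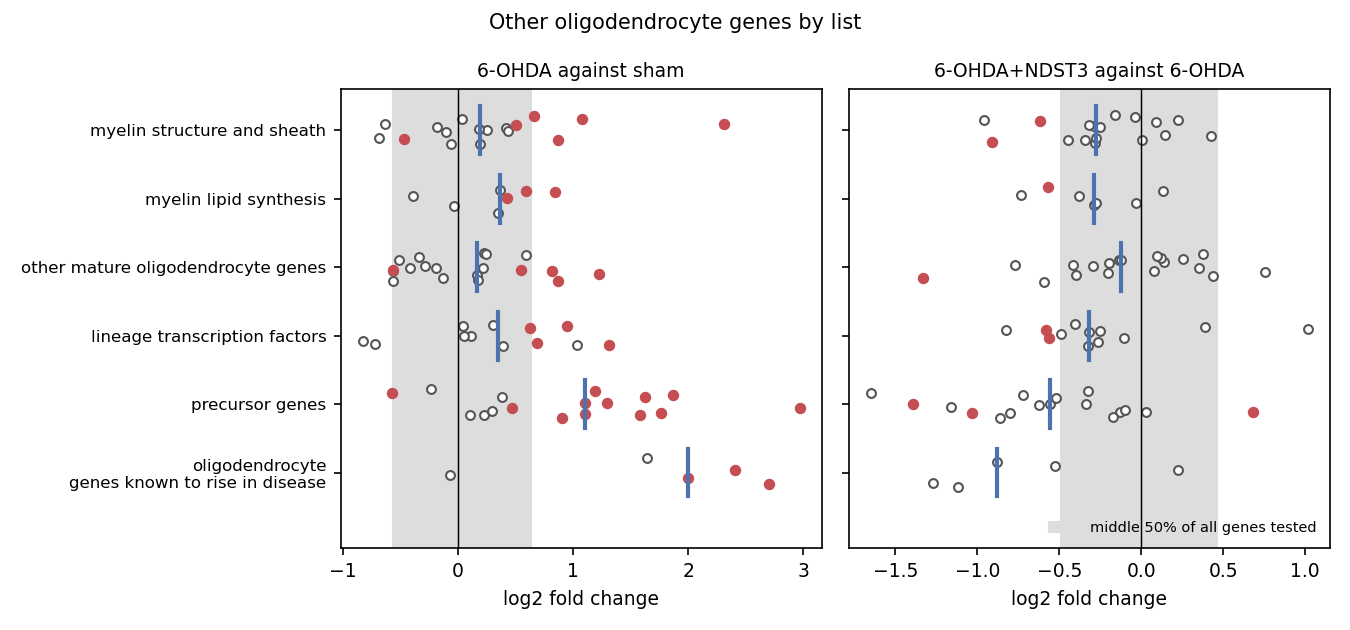
Log2 fold change (x axis) of each of the 77 other oligodendrocyte genes, by list (y axis), for 6-OHDA against sham (left) and 6-OHDA+NDST3 against 6-OHDA (right). Filled points had an adjusted p under 0.05, blue lines are list medians, and the grey band spans the middle 50% of all genes tested. On the left the precursor list, which also holds genes of early maturing cells, has a median of 1.10, and the myelin structure genes have one of 0.19.

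The second comparison asked how NDST3 moved the lineage after the lesion. All 9 genes had lower values in both 6-OHDA+NDST3 libraries than in the 6-OHDA library, on the CPM scale, and 1 of them, Pdgfra, was called. On the TPM scale 6-OHDA+NDST3 replicate 1 was above the 6-OHDA library for Mbp (6356 against 6260), Mobp (1375 against 1280), Mog (279 against 277) and Mag (692 against 643). Of all genes tested, 6.59% were called lower and 9.06% higher, 15.6% in all, and 85.6% had no overlap between the 6-OHDA library and the 6-OHDA+NDST3 pair. This comparison shares its single 6-OHDA library with the first, so a high value there gives a rise in one and a fall in the other.

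The log2 fold change of Pdgfra was -0.86 ± 0.14 (adjusted p = 0.0344, edgeR), 0.549 of the 6-OHDA level. Olig2 (-0.47 ± 0.11, adjusted p = 0.0532, edgeR) missed the threshold, and DESeq2 called it as well as Pdgfra (adjusted p = 0.0206 for Olig2). The sheath genes had log2 differences of -0.26 ± 0.25 for Mbp, -0.29 ± 0.25 for Mobp, -0.32 ± 0.19 for Mog, -0.19 ± 0.20 for Mag and -0.31 ± 0.16 for Cnp. Opalin and Ugt8a gave -0.26 ± 0.13 and -0.27 ± 0.13. The Pdgfra call was lost without 6-OHDA+NDST3 replicate 1 (adjusted p = 0.0742, edgeR), without either sham library (0.104 and 0.105), with only these groups in the fit (0.112) and with the replicate block (0.159).

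The 6-OHDA+NDST3 libraries were not alike for the sheath genes. Replicate 2 was the lowest of the 5 libraries for Mbp (4577 CPM), Mobp (1117), Mog (152) and Mag (542), while replicate 1 was above both sham libraries for each. For Pdgfra the pair differed little (79.6 and 81.7 CPM). Replicate 2 also held 1151 CPM of ependymal and choroid plexus markers, against 33.5 to 95.0 in the other 4 libraries. Whether the tissue taken differed was not tested. Without replicate 2 the log2 differences against 6-OHDA were -0.11 for Mbp and -0.08 for Mobp, and without replicate 1 they were -0.48 and -0.59.

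In the other oligodendrocyte genes, 8 of 77 were called lower with NDST3 than after 6-OHDA and 1 higher, with a median log2 difference of -0.29 against 0.00 over all genes. The 8 were Matn4 (-1.39), Apod (-1.33), Vcan (-1.03), Cldn11 (-0.91), Tspan2 (-0.62), Sox6 (-0.58), Cers2 (-0.57) and Olig1 (-0.56), and Tmem163, which had fallen after 6-OHDA, was the 1 called higher (0.68). By list, 2 of 17 precursor genes, 2 of 12 transcription factors, 2 of 17 structural genes, 1 of 7 lipid genes, 1 of 19 other mature genes and 0 of 5 disease genes were called lower. Beside the 6.59% of all genes called lower, counts of 1 or 2 genes in lists of this size say nothing about the lists. For the disease genes, 0 were called higher as well, and the lowest value was that of Cdkn1a (-1.27). Bmp4 had the lowest value of all 77 (-1.65) and Tcf7l2 the highest (1.02), and neither was called. Without 6-OHDA+NDST3 replicate 1, or without either sham library, 0 of the 77 were called. DESeq2 called 28, of which 24 lower.

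**Figure D4:**
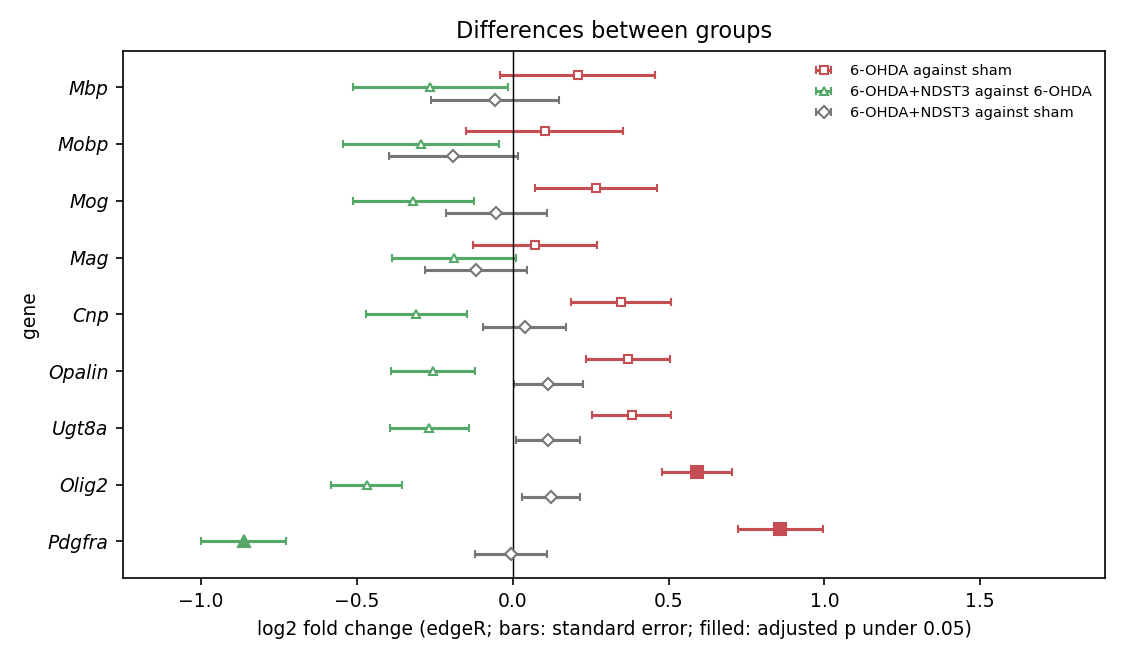
Log2 fold change (x axis) of each gene (y axis) in 3 comparisons, with bars for 1 standard error from edgeR. Filled symbols had an adjusted p under 0.05, which holds for Pdgfra (0.86) and Olig2 (0.59) for 6-OHDA against sham and for Pdgfra (-0.86) for 6-OHDA+NDST3 against 6-OHDA.

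The third comparison set the treated libraries against sham. None of the 9 genes was called (edgeR 0, DESeq2 0, and 0 at an unadjusted p under 0.05), with log2 differences from -0.19 ± 0.21 for Mobp to 0.12 ± 0.09 for Olig2. The libraries of the 2 groups overlapped for 8 of the 9 genes. They were separate for Olig2, as they were for 48.9% of all genes. Pdgfra differed by -0.01 ± 0.11. Absence of a call does not show equal levels, since 0 genes of the whole table, 0.0%, were called by edgeR in this comparison, although 2743 had an unadjusted p under 0.05 and DESeq2 called 1048. Of the 77 other genes edgeR called 0, with 16 at an unadjusted p under 0.05, and DESeq2 called 7.

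In scRNA-seq the question was which cells carry these genes. The table gave the mean of log-normalized expression (natural log scale) in 9 clusters for the 6-OHDA and 6-OHDA+NDST3 libraries, with no sham value and with 1 library per group, so no test was made. The dissociated cells had been cleared of myelin debris on a Percoll gradient, per the labels. Per the study's methods, cells with very many detected genes or a high mitochondrial share were removed, the former against multiplets, and a doublet caller is not given in the sources used here. Doublets cannot be looked for in cluster means, and their part in the values of Mbp, Cnp and Mag outside cluster 2 was not tested. A gene was counted as detected in a cluster when either mean was above 0.1.

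Cluster 2 held 8 of the 9 genes, all but Olig2. It was also the cluster with the most genes detected, 36.9% of all genes listed against 21.9% to 28.7% in the others, and of the genes whose mean over both libraries was above 0.1 there, 17.1% were above it there alone. That share used the mean over both libraries, whereas the members were counted by either mean. Pdgfra passed in cluster 2 only through its 6-OHDA mean. Mog (0.222 after 6-OHDA and 0.1999 with NDST3), Mobp (0.191 and 0.243), Opalin (0.103 and 0.153), Ugt8a (0.189 and 0.164) and Pdgfra (0.103 and 0.0923) were detected there and in no other cluster. Olig2 was also highest there (0.0515 and 0.0491) and at most 0.0020 elsewhere, with 11 of the 18 values at 0. Mature sheath genes and the precursor receptor were therefore not separated by this clustering.

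Cluster 2 was not an oligodendrocyte cluster alone. It was the cluster with the highest mean for 10 of 12 oligodendrocyte and 7 of 8 precursor markers. It was also highest for 7 of 8 astrocyte, 6 of 6 ependymal or choroid plexus, 8 of 11 neuron and 5 of 7 fibroblast markers. The oligodendrocyte markers include Mbp, Mobp, Mog, Mag, Cnp, Opalin and Ugt8a, and the precursor markers include Pdgfra and Olig2. The counts for those lists thus partly repeat the member values above and are not separate evidence about cluster 2. The median of the ependymal markers there was 0.745 and that of the oligodendrocyte markers 0.236. A mean over cluster 2 thus covers several cell types, and its Pdgfra cannot be divided between precursors and fibroblasts. In cluster 5, where 7 of 7 mural cell markers were highest, Pdgfra was 0.0023 and 0.0066. Of the 76 other oligodendrocyte genes in the table, 52 were highest in cluster 2, as were 31.3% of all 11758 genes whose mean over both libraries was above 0.1 in any cluster.

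Mbp did not follow the other genes. Its highest means were in cluster 1 (0.810 and 0.832), where 6 of 6 neutrophil markers were highest, then in cluster 8 (0.641 and 0.549) and cluster 4 (0.621 and 0.521), where 7 of 7 T cell markers were highest, and only then in cluster 2 (0.339 and 0.363). It was detected in 7 of 9 clusters and was lowest in cluster 5 and in cluster 7, where 6 of 6 endothelial markers were highest (0.0273 to 0.0373). The Mbp locus is known to give rise to a second family of transcripts, named golli, that is made in blood cells as well as in the brain. The table does not separate the transcripts.

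Cnp was likewise broad, with 0.609 and 0.581 in cluster 2 and 0.659 and 0.465 in cluster 9, where 6 of 6 B cell markers were highest, and it was detected in 6 clusters. Mag was detected outside cluster 2 (0.235 and 0.277) in cluster 6 (0.123 and 0.142), where 7 of 8 microglia markers were highest. Mobp, Mog and Opalin stayed at or under 0.0603 outside cluster 2.

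**Figure D5:**
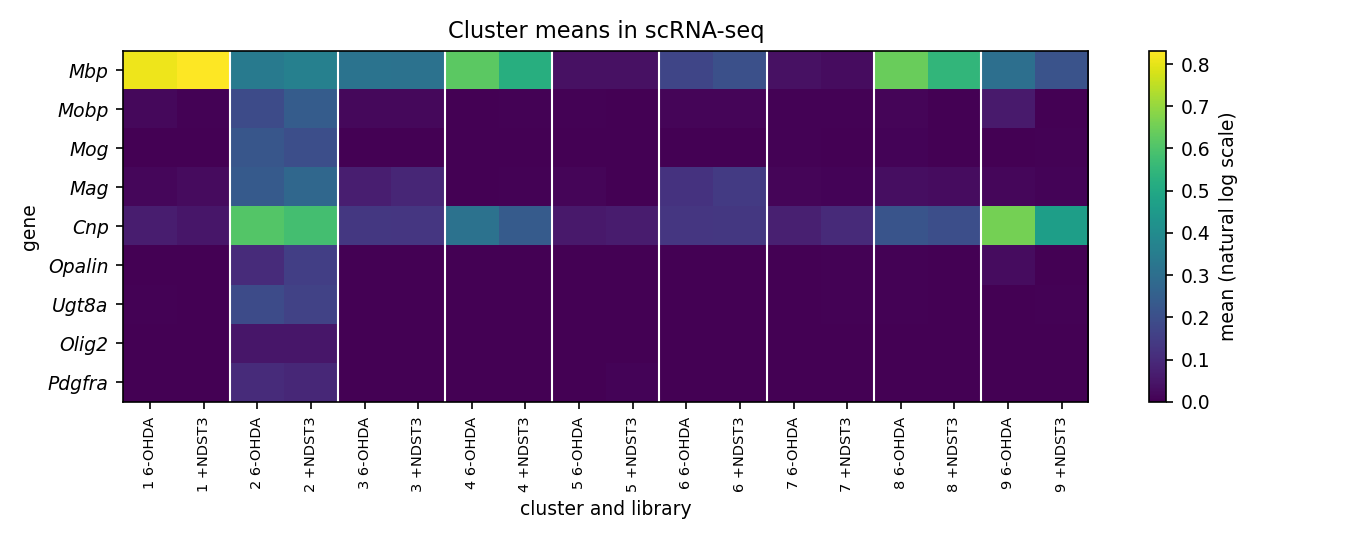
Mean expression (natural log scale, colour) of each gene (y axis) in 9 clusters for the 6-OHDA and 6-OHDA+NDST3 libraries (x axis). Most genes are coloured in cluster 2 alone, while Mbp is highest in cluster 1 (0.810 and 0.832) and Cnp is also high in cluster 9.

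Between the libraries, the members of cluster 2 differed by at most 0.0519 (Mobp, higher with NDST3), and 0 of the 8 differed by 0.1 or more, against 7.27% of all genes detected in that cluster. For members with means not far above 0.1, such a step would be a large relative change, so this count does not show stable levels. Opalin, for one, went from 0.103 after 6-OHDA to 0.153 with NDST3 without being counted. In cluster 2 Pdgfra differed by -0.0112, and Olig2 by -0.0025. The one difference of at least 0.1 was that of Cnp in cluster 9 (-0.193), where 32.4% of the genes detected differed that much. Mbp differed, as 6-OHDA+NDST3 minus 6-OHDA, by -0.0995 in cluster 4, -0.0927 in cluster 8 and -0.0912 in cluster 9, and by 0.0216 in cluster 1. These values have no replicate and cannot be set against an error.

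Over the 18 cluster means, the genes with the pattern most like Mog were Mapk15, Dynlrb2 and Dnah5 (Pearson r = 1.00 for each, over 18 values), and those most like Ugt8a were 4833427G06Rik, Zbbx and Fam183b (r = 1.00). Several of these are genes of motile cilia. Pdgfra was most like Csmd1, Lrrc46 and Ccdc194 (r = 0.999), Mobp most like Lmx1b, Opalin and Cacna2d2 (r = 0.994, 0.993 and 0.993), and Opalin most like Lmx1b, Cldn10 and Cacna2d2 (r = 0.998, 0.997 and 0.996). A value that is high in cluster 2 alone gives a high r with any other such gene, and the points share 2 libraries. Mbp was closest to Prr13, Map3k14 and Itgal, a leukocyte integrin (r = 0.914, 0.909 and 0.895), Cnp to Slc14a1, Dtx1 and Sys1 (0.984, 0.937 and 0.935), and Mag to Ccdc122, Lrguk and Scamp5 (0.991, 0.987 and 0.979). Mbp had an r between -0.08 and 0.04 with each of the other 7 detected members, whereas Mog and Ugt8a had an r of 1.00 with each other.

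The chromatin tables list regions near gene starts, and each held 1 region of these genes. In H3K27ac, a mark of active promoters and enhancers, the region lay at -4 bases from a start of Mbp, as deposited. Its signal was 15.1 in sham, 12.9 after 6-OHDA and 20.6 with NDST3. Whether that start belongs to the golli or to the myelin transcripts of Mbp is not given, so it cannot be read as the myelin promoter. After adding 1, the fold was 0.863 for 6-OHDA against sham, where the median of all 11424 regions was 1.09, and 1.56 for 6-OHDA+NDST3 against 6-OHDA, where it was 1.31. Neither fold reached 2 in either direction, which 12.2% and 11.0% of all regions did. The signals were highest with NDST3 in most regions: against sham the Mbp region had a fold of 1.34 and the median region 1.44, with 26.1% of regions at 2-fold or more in either direction. With each group divided by its median the Mbp fold was 0.896.

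In ATAC-seq, which marks open chromatin, the region lay at -390 bases from a start of Pdgfra, as deposited. Its signal was 32.9 in sham, 16.5 after 6-OHDA and 29.3 with NDST3. Whether that is the start whose bases are shown above was not tested. The 6-OHDA library was the lowest, while its Pdgfra RNA was the highest of the RNA-seq libraries. The fold was 0.516 for 6-OHDA against sham (median of all regions 1.08), within the lowest 6.02% of 3537 regions, and 1.73 for 6-OHDA+NDST3 against 6-OHDA (median 1.08). Against sham it was 0.894 with NDST3 (median 1.15), where 14.3% of regions reached 2-fold. In the first 2 of these comparisons, folds of at least 2 in either direction occurred in 9.64% and 7.94% of regions. There was 1 library per group, so no error can be given.

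The other oligodendrocyte genes had 25 H3K27ac regions near 14 genes and 14 ATAC-seq regions near 10. Their median H3K27ac folds were 1.01 for 6-OHDA against sham and 1.24 for 6-OHDA+NDST3 against 6-OHDA, against 1.09 and 1.31 over all regions. The widest were a region of St18, a lineage transcription factor (2.99 after 6-OHDA), and one of the complement gene C4b (3.01 with NDST3 against 6-OHDA). In ATAC-seq the medians were 1.37 and 0.958, with 1.08 and 1.08 over all regions. There 1 of the 14 regions reached 2 after 6-OHDA, that of Lpar1 (2.18), and the lowest value with NDST3 against 6-OHDA was that of a Cd9 region (0.356).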

How the data were processed

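RNA-seq reads had been trimmed, aligned to mm10 with HISAT2 and quantified with StringTie by the authors, who deposited raw read counts, FPKM and TPM per gene; how counts were taken is not given in the sources used here. The scRNA-seq table, deposited by the authors, holds cluster means on a natural log scale, the log base being inferred from the back-transformed column sums (5620 to 7561). H3K27ac and ATAC-seq values are signal per region as deposited by the authors, with a normalization not given in the sources used here. Positions of these regions lay within 1500 bases of a GRCm38 gene end for only 4.19% and 10.4% of regions, although the labels name mm10, so no sequence was read by them. ATAC-seq regions without a value in all groups were left out (3537 of 3582 kept).

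Counts of all 5 libraries entered 1 fit in edgeR 4.0.16 (R 4.3.3, TMM scaling, filterByExpr, quasi-likelihood F test), which kept 19300 of 20328 genes and had 2 residual degrees of freedom. The single 6-OHDA library was assumed to vary like the other groups. The labels do not say that replicates came from separate animals, so p-values measure only the spread between these libraries. A call is an adjusted p under 0.05. The script was tested on simulated data. DESeq2 1.42.0, limma 3.58.1 on log2 FPKM with a pseudocount of 1 or of 0.1, other scalings, no filter, a fold of at least 2 with an unadjusted p under 0.05, only the groups compared, each library left out and the replicate number as a block were alternatives. Genes named are the 9 members, the widest or called genes of the lists (some are not reported here), and the 3 genes with the highest Pearson r per member. Examples within a list were chosen after their values were seen. The members and lists were chosen with earlier results of these data known. Start regions came from RefSeq.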

Additional observations from a re-analysis of the deposited data

How the results depend on the processing

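The number of members called after 6-OHDA (2) became 0 under a fold of at least 2 with an unadjusted p under 0.05, 0 with the replicate block, and 0 to 2 when 1 library was left out, and stayed between 2 and 3 in the other fits. The single member called with NDST3 against 6-OHDA became 0 under the fold rule, 0 with only the groups compared and 0 with the block, 2 with DESeq2, and 0 to 1 when 1 library was left out. The other oligodendrocyte genes called after 6-OHDA (33) were 17 by the fold rule, 7 with the block and 0 to 41 with 1 library left out, and their precursor genes (12) were 3 with the block and 0 to 13. With NDST3 against 6-OHDA (9) there were 28 with DESeq2, 0 with the block, 0 with only the groups compared and 0 to 9. Against sham (0) there were 4 by the fold rule, 7 with DESeq2 and 0 to 1. Over all genes the counts were 1796 with the block and 0 to 7140 with 1 library left out after 6-OHDA (6916). With NDST3 against 6-OHDA (3019) they were 5262 with DESeq2, 0 with the block, 0 with only the groups compared and 0 to 3163. Against sham (0) they were 1131 by the fold rule, 1048 with DESeq2 and 0 to 111.

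The labels do not say what the replicate numbers of sham and 6-OHDA+NDST3 libraries mark, and the deviations of same-numbered libraries had a correlation of -0.43 across genes. With the numbers crossed, chosen after seeing the data, the block gave 2 members, 22 other oligodendrocyte genes and 4795 genes with NDST3 against 6-OHDA, and 8 and 1194 against sham. Sheath genes and Pdgfra changed sign where the differences were near 0: with the block after 6-OHDA, Mobp (-0.050) and Mag (-0.052), and against sham, Pdgfra at 0.0054 by library size, 0.0174 and 0.0194 by limma and 0.0005 under both blocks. With 1 library left out, values against sham ran from -0.27 to 0.11 for Mbp, -0.49 to 0.0318 for Mobp, -0.28 to 0.12 for Mog, -0.33 to 0.0465 for Mag, -0.0713 to 0.12 for Cnp and -0.13 to 0.13 for Pdgfra. The H3K27ac fold of Mbp with NDST3 against sham was 0.896 after dividing by the group medians. At a limit of 0.2, 5 members in place of 8 were detected in cluster 2. The cause of these changes was not tested, except that leaving out a library leaves fewer samples. With 1 6-OHDA library, the error of that group was not measured.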
